A study of Danio rerio with 16 samples.

Results

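The response of zebrafish embryos to Sox2 mRNA was compared between embryos without and with Pou5f1, using 13 of the 16 samples of the series. The comparison took the difference between MZ_Sox2 and MZ and subtracted from it the difference between WT_Sox2 and WT, on the log2 scale of array intensity. The 2 differences are called the arms of the comparison. Effects come from a fit that also adjusts for dye, so they can differ slightly from differences of group means. A positive difference of effects means a higher response to Sox2 mRNA in MZ than in WT embryos. It was described for the 4949 genes, of 9238 with a symbol, whose brightest probe had a mean intensity of 256 or more (a mean log2 intensity of 8). These are called bright genes here.

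Of the 4 groups, MZ_Sox2 held 4 samples and MZ, WT_Sox2 and WT held 3 each. MZ embryos carried the spg allele m793 and lacked both maternal and zygotic Pou5f1, per the labels, while WT embryos had it. Injected embryos of either genotype received 50 pg Sox2 mRNA, and embryos of the MZ and WT groups were not injected. None of the 4 groups received a control mRNA. What is called a Sox2 effect here therefore cannot be told apart from an effect of injection itself. All embryos were kept in cycloheximide, a blocker of protein synthesis (15 µg/ml), beginning 1.5 hours post fertilization (hpf), and were frozen at 4.7 hpf. Each sample was a pool of 60 to 100 whole embryos read in 1 dye channel of an Agilent array, and the series describes its replicates as biological.

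As background, Sox2 is a transcription factor of the SoxB1 family that binds DNA through an HMG box. It often binds next to a POU-family factor on composite sites. In zebrafish the gene pou5f3 encodes the protein called Pou5f1 in these labels, which is supplied by the mother and acts with SoxB1 factors and Nanog when the embryo's own genome is first transcribed. The comparison asks whether genes answer to Sox2 differently when that partner is missing.

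The samples did not fall into their labelled groups. Over 7668 bright probes, 6 of the 13 samples were closest (Spearman correlation across probes) to a sample of their own group. MZ_Sox2 replicate 3 lay closest to MZ replicate 3 (0.982), and WT replicate 3 lay closer to MZ replicate 2 (0.921) than to its own group (mean 0.799). Slides were read from the array barcodes in the labels and are lettered A to D here. WT replicate 3 and MZ replicate 2 were the 2 dye channels of the same array on slide D. With MZ replicate 1, on another array of that slide, WT replicate 3 correlated at 0.920. MZ_Sox2 replicate 1 was nearest to WT replicate 2 (0.931), and WT replicates 1 and 2 had the highest correlation of any pair (0.996), on different slides and in different dyes. Injected and uninjected samples of the same genotype shared no slide, and within an arm an effect of the slide cannot be told apart from that of injection. Slide A held all WT_Sox2 samples with MZ_Sox2 replicate 1, slide B the other MZ_Sox2 samples, and slides C and D the uninjected samples. Between the injected groups, the difference of effects thus mostly compared slide B with slide A, linked by MZ_Sox2 replicate 1 alone. Slide and genotype can hardly be told apart there, and a fit with slide as a block leans on that sample. Results are therefore also given without single samples where that changes them by much.

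The probes of both factors are given first. The sox2 probe was not bright (mean log2 intensity 6.45). It read 5.66, 7.46, 7.2 and 5.37 in MZ_Sox2, 7.39, 8.27 and 9.01 in MZ, against 4.23, 4.49 and 5.24 in WT_Sox2 and 6.75, 6.95 and 8.30 in WT. WT_Sox2 lay below all other samples, and MZ_Sox2 overlapped with MZ at the lower side, so no rise with the injected mRNA was read in either genotype. Its difference of effects was 0.78 (SE 0.95, limma unadjusted p = 0.427, adjusted p = 0.817). The pou5f3 probe read 14.65, 15.90, 15.68 and 15.46 in MZ_Sox2, 14.68, 15.15 and 15.92 in MZ, against 14.66, 15.22 and 13.92 in WT_Sox2 and 14.17, 14.29 and 15.01 in WT. All 4 groups overlapped, and the difference of effects was -0.18 (SE 0.56, unadjusted p = 0.757, adjusted p = 0.944). Where these probes lie relative to the injected mRNA or the m793 change is unknown here, and they do not check the labels.

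No gene passed the threshold for the difference of effects. The limma test called 0 of 21495 probes at an adjusted p under 0.05 (0%), while 1954 probes (9.09%) had an unadjusted p under 0.05. Among the 4949 bright genes, 287 (5.8%) had an unadjusted p under 0.05 with a higher response in MZ and 289 (5.84%) with a lower one. With the deposited values of all columns used unmapped, the split was 275 higher and 60 lower. The same model called 0 probes (0%) for Sox2 mRNA in MZ and 21 probes (0.0977%) for Sox2 mRNA in WT. Those 21 calls became 0 with slide as a random block, with the replicate block, with the deposited values unmapped and without WT_Sox2 replicate 1 or WT replicate 1. All named genes below are thus ranked by a test that none of them passed after adjustment, and their values are descriptive.

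Without a model, a gene was also counted where all 12 differences between an MZ_Sox2 and an MZ sample lay on 1 side of all 9 differences between a WT_Sox2 and a WT sample. That held with the MZ differences higher for 97 bright genes (1.96%) and with them lower for 94 (1.9%). Over all bright genes 51.9% of the differences of effects were below 0, with a median of -0.04 and quartiles of -0.54 and 0.48. The median standard error was 0.52, as large as the typical difference itself (median size 0.51). At the brightness limit, gnal was just inside with a mean intensity of 256.1 and a difference of effects of 0.45, and cbln1 was just outside at 255.8 with -0.04.

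The effects in the arms were nearly uncorrelated. Across the 4949 bright genes the Sox2 effect in MZ and the Sox2 effect in WT correlated at -0.00934 (Pearson) and 0.0351 (Spearman). The arms share no sample, but each uninjected WT sample was read on the same array as an uninjected MZ sample. The arms were therefore not measured independently of each other. The WT arm was the larger of the pair in 2889 bright genes (58.4%), with a median size of 0.31 in MZ and 0.42 in WT on the log2 scale. The median standard error of the difference of effects was 0.52, larger than either size. Noise of that size lowers a correlation, so the low values do not show that the responses are unlike. Genes with a low unadjusted p for the difference tend to have arms of opposite sign by construction, so the next counts describe them only. Among the 287 genes with a higher response in MZ, 252 had a positive effect in MZ and a negative one in WT. Of the 289 genes with a lower response, 258 had a negative effect in MZ and a positive one in WT. In these sets the WT arm was the larger in 231 and 232 genes (80.5% and 80.3%).

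**Figure D1:**
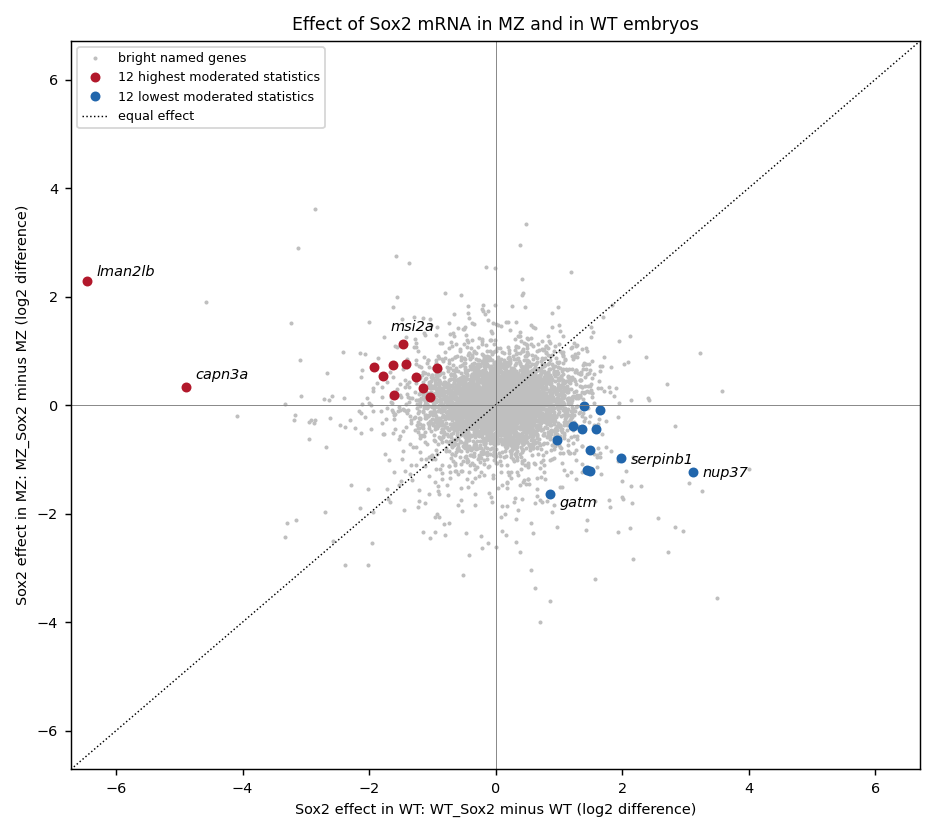
Effect of Sox2 mRNA in WT embryos (x axis, WT_Sox2 minus WT) and in MZ embryos (y axis, MZ_Sox2 minus MZ) for 4949 bright genes, as log2 differences of the fit, with the 12 highest and 12 lowest moderated statistics coloured and a dotted line at equal effects. The coloured genes lie at the upper left and lower right, farther from 0 along the WT axis than along the MZ axis for all but gatm, and lman2lb and capn3a lie far to the left.

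The 12 bright genes with the highest moderated statistic all had a positive effect in MZ and a negative one in WT. For each of the 12, the 3 WT_Sox2 samples lay below the 3 WT samples with no overlap. The 4 MZ_Sox2 samples lay above the 3 MZ samples with no overlap in 3 of them, namely dgcr8, ylpm1 and fam3c. In 11 of 12, against 1.96% of all bright genes, the pairwise differences of the arms did not overlap, the exception being marveld2b. The share of all bright genes whose samples separate in this way within an arm was not counted. Since the genes were picked by this contrast, these counts describe the choice and support nothing.

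These genes are given by the known roles of their proteins, not by rank. The gene lman2lb (probe A_15_P114789) encodes a lectin of the family that carries mannose-rich glycoproteins between early secretory compartments. Its log2 intensity was 12.24, 10.74, 12.36 and 11.23 in MZ_Sox2, 11.04, 11.53 and 7.53 in MZ, against 5.41, 5.20 and 6.63 in WT_Sox2 and 12.23, 12.49 and 11.89 in WT. The WT_Sox2 samples lay below all 10 other samples, and MZ replicate 3 was the lowest of the rest, well under MZ replicates 1 and 2. The difference of effects was 8.74 (SE 1.45, unadjusted p = 5.31e-05, adjusted p = 0.262), made up of 2.28 in MZ embryos and -6.46 in WT embryos. The WT arm had an adjusted p of 0.0493 in limma, which was 0.185 with slide as a random block, 0.0879 with the replicate block and 0.0468 to 0.222 with single samples left out. Within slide A, MZ_Sox2 replicate 1 exceeded the mean of the WT_Sox2 samples by 6.49, while MZ minus WT was -4.71 on slide C, where MZ is replicate 3, and -0.90 on slide D. Over all alternatives the difference of effects was 7.57 to 9.64. WT_Sox2 replicates 1 and 2 read under an intensity of 64, though above the dark control feature.

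The gene wls encodes Wntless, the carrier that brings Wnt ligands to the cell surface. Its log2 intensity was 12.91, 12.90, 12.67 and 12.31 in MZ_Sox2, 12.35, 12.65 and 12.47 in MZ, against 11.87, 11.92 and 12.43 in WT_Sox2 and 13.38, 13.31 and 12.99 in WT. WT lay above all other samples, while MZ_Sox2 and MZ overlapped, and the difference of effects was 1.48 (SE 0.34, unadjusted p = 0.000829, adjusted p = 0.333). A second wls probe gave 1.03 (unadjusted p = 0.0116). The secreted protein gene fam3c ranged over 10.02 to 10.47 in MZ_Sox2, 9.85 to 9.96 in MZ, 8.78 to 9.87 in WT_Sox2 and 9.97 to 10.99 in WT, with MZ_Sox2 entirely above MZ and WT_Sox2 entirely below WT, and a difference between the arms of 1.77 (SE 0.42, adjusted p = 0.333). The gene slc35e3, of a solute carrier family that moves nucleotide sugars, had 8.86 to 10.62 in MZ_Sox2, 8.26 to 9.48 in MZ, 8.03 to 8.81 in WT_Sox2 and 9.68 to 10.29 in WT, and a difference between the arms of 2.37 (SE 0.56, adjusted p = 0.333). The tight junction gene marveld2b, for a protein of the corners where epithelial cells meet, had 8.92 to 10.26 in MZ_Sox2, 9.01 to 9.45 in MZ, 8.01 to 9.45 in WT_Sox2 and 9.77 to 10.71 in WT. In marveld2b the pairwise differences of the arms overlapped, and the difference of effects was 2.32 (SE 0.54, adjusted p = 0.333).

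Among genes for RNA-binding proteins, dgcr8 encodes the partner of Drosha that recognises primary microRNA transcripts. Its log2 intensity was 9.96, 10.41, 10.30 and 10.52 in MZ_Sox2, 9.23, 9.48 and 9.84 in MZ, against 8.22, 9.12 and 8.78 in WT_Sox2 and 10.45, 10.45 and 9.51 in WT. The MZ_Sox2 samples lay above the MZ samples and the WT_Sox2 samples below every other sample, with a difference between the arms of 2.18 (SE 0.45, unadjusted p = 0.000404, adjusted p = 0.316). A second dgcr8 probe gave 0.17 (unadjusted p = 0.714), so the probes of this gene differed in size. The gene msi2a, for a Musashi protein that regulates translation, had 12.73, 12.01, 11.96 and 11.69 in MZ_Sox2, 10.96, 10.40 and 11.87 in MZ, against 10.21, 10.26 and 11.37 in WT_Sox2 and 11.97, 12.12 and 12.15 in WT. WT_Sox2 lay below WT with no overlap, whereas MZ replicate 3 lay within the MZ_Sox2 range. The difference of effects was 2.58 (SE 0.57, adjusted p = 0.333).

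Of the other RNA-related genes, raver2 encodes a ribonucleoprotein that binds the splicing regulator PTB, and it ranged over 12.01 to 12.85 in MZ_Sox2, 11.10 to 12.03 in MZ, 10.45 to 12.31 in WT_Sox2 and 12.96 to 13.38 in WT. Its difference of effects was 2.62 (SE 0.62, adjusted p = 0.333). The helicase gene helz ranged over 8.87 to 9.68 in MZ_Sox2, 9.06 to 9.44 in MZ, 8.24 to 9.03 in WT_Sox2 and 9.83 to 10.49 in WT, with MZ_Sox2 and MZ overlapping and WT above all other samples, for a difference between the arms of 1.78 (SE 0.41, adjusted p = 0.333). The gene ankhd1, whose protein has ankyrin repeats and a KH domain, had 11.95 to 12.34 in MZ_Sox2, 11.99 to 12.27 in MZ, 11.64 to 11.73 in WT_Sox2 and 12.61 to 12.84 in WT. WT lay above and WT_Sox2 below all samples of both MZ groups, and the difference of effects was 1.19 (SE 0.28, adjusted p = 0.333). A further ankhd1 probe had the opposite sign (-0.55). The nuclear protein gene ylpm1 ranged over 11.85 to 12.65 in MZ_Sox2, 11.33 to 11.84 in MZ, 11.05 to 11.75 in WT_Sox2 and 12.11 to 12.54 in WT, where MZ_Sox2 and MZ all but touched, and its difference of effects was 1.60 (SE 0.37, adjusted p = 0.333).

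The gene capn3a (probe A_15_P116746), for a calpain, a calcium-dependent protease, was the remaining one of the 12. Its log2 intensity was 10.90, 9.85, 9.51 and 9.61 in MZ_Sox2, 10.85, 9.07 and 10 in MZ, against 8.87, 7.85 and 10.26 in WT_Sox2 and 13.20, 13.76 and 14.70 in WT. All WT samples lay above the other 10 samples, and the other 3 groups overlapped with each other. The difference of effects was 5.23 (SE 1.2, unadjusted p = 0.000881, adjusted p = 0.333), made up of 0.34 in MZ embryos and -4.89 in WT embryos, so nearly all of it came from the WT arm.

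**Figure D2:**
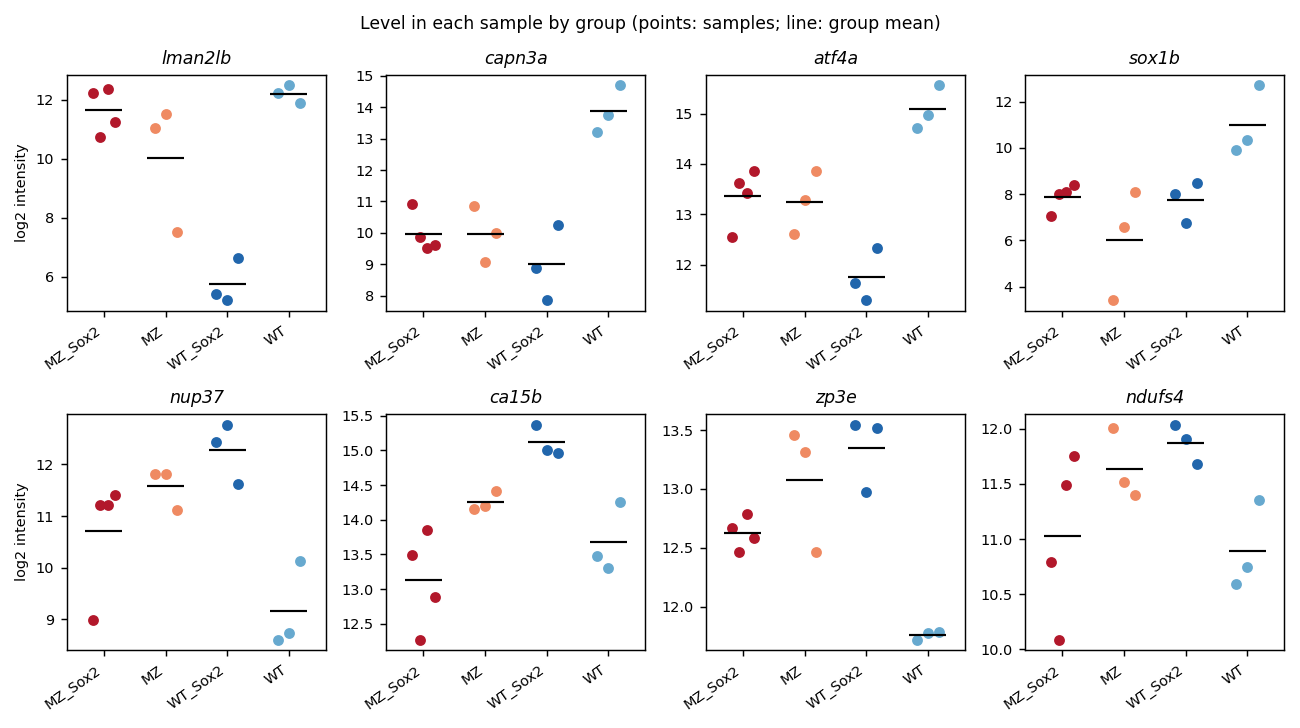
Log2 intensity of 8 genes in each sample, by group (points are samples, horizontal lines are group means), with separate y axes per gene. For lman2lb, capn3a, atf4a and sox1b the WT_Sox2 samples lie below WT, while for nup37, ca15b, zp3e and ndufs4 they lie above WT, and the MZ_Sox2 and MZ points overlap in all but ca15b.

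The 12 bright genes with the lowest moderated statistic all had a negative effect in MZ and a positive one in WT. The WT_Sox2 samples lay above the WT samples with no overlap in 11 of 12, the exception being gatm. The MZ_Sox2 samples lay below the MZ samples with no overlap in 3, namely ca15b, tmsb5 and gatm. In 7 of the 12 the WT_Sox2 samples lay above all 10 other samples. In 9 of 12, against 1.9% of all bright genes, the pairwise differences of the arms did not overlap, the others being tmprss4b, gatm and rilpl2. For the separation within an arm, or from all other samples, the share of all bright genes was not counted. These genes too were picked by this contrast, so the counts describe the choice and support nothing.

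Transcripts of the egg coat and germ line were among them. The gene zp3e encodes an egg coat (zona pellucida) protein made in the oocyte. It read 12.67, 12.47, 12.79 and 12.58 in MZ_Sox2, 13.46, 13.31 and 12.46 in MZ, against 13.55, 12.97 and 13.52 in WT_Sox2 and 11.72, 11.77 and 11.78 in WT. WT lay below all other samples, and MZ replicate 3 lay with the MZ_Sox2 samples and apart from the other MZ replicates. The difference of effects was -2.04 (SE 0.54, unadjusted p = 0.00264, adjusted p = 0.362), and a second zp3e probe gave -1.81. The related gene zp3 had 10.34, 9.97, 10.69 and 10.22 in MZ_Sox2, 10.10, 10.32 and 10.58 in MZ, against 11.04, 11.01 and 11.24 in WT_Sox2 and 9.55, 9.63 and 9.16 in WT. Here WT_Sox2 lay above and WT below all samples of both MZ groups, which overlapped, and the difference of effects was -1.75 (SE 0.46, adjusted p = 0.362).

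The gene ca15b (probe A_15_P104889), for a carbonic anhydrase whose mRNA sits in the germ plasm, had 13.50, 12.27, 13.85 and 12.89 in MZ_Sox2, 14.15, 14.20 and 14.41 in MZ, against 15.37, 15.01 and 14.96 in WT_Sox2 and 13.47, 13.31 and 14.25 in WT. WT_Sox2 lay above all other samples and MZ_Sox2 lay below MZ with no overlap, so that both arms contributed (-1.19 in MZ embryos and 1.44 in WT embryos). For this gene the difference of effects was -2.63 (SE 0.61, unadjusted p = 0.000916, adjusted p = 0.333). Over the 5 germ cell markers ddx4, nanos3, dnd1, ca15b and tdrd7a, all bright, summed intensity was 17120 to 38350 in MZ_Sox2, 32700 to 43680 in MZ, 54880 to 70520 in WT_Sox2 and 32680 to 33990 in WT. In WT_Sox2 ca15b itself made up 42450, 33080 and 31830 of that sum, so the sum largely repeats its probe. Of these 5, ca15b alone had an unadjusted p under 0.05. In pooled whole embryos, fewer cells of a type and less RNA per cell cannot be told apart. The part of germ cell number or germ plasm content in the ca15b value was not tested.

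Among surface and secreted proteins, notch1a encodes a Notch receptor. Log2 intensity was 8.98, 9.26, 9.35 and 9.51 in MZ_Sox2, 9.03, 8.96 and 9.53 in MZ, against 10.68, 10.19 and 9.91 in WT_Sox2 and 8.96, 8.97 and 8.64 in WT. WT_Sox2 lay above all other samples, and the MZ groups overlapped. The arms differed by -1.43 (SE 0.34, unadjusted p = 0.00129, adjusted p = 0.343), with an effect in MZ of -0.03. The transmembrane protease gene tmprss4b ranged over 12.82 to 13.77 in MZ_Sox2, 13.43 to 13.58 in MZ, 13.93 to 14.69 in WT_Sox2 and 12.57 to 13.67 in WT, and its difference of effects was -1.61 (SE 0.32, adjusted p = 0.293). The gene serpinb1, of the serine protease inhibitors, ranged over 8.33 to 8.99 in MZ_Sox2, 8.95 to 9.81 in MZ, 10.09 to 10.23 in WT_Sox2 and 7.53 to 9.36 in WT, with a difference between the arms of -2.96 (SE 0.76, adjusted p = 0.347).

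Of the intracellular proteins, atp6v1d encodes a subunit of the proton pump that acidifies vesicles and ranked first in this direction. The samples read 11.18, 11.71, 11.34 and 11.51 in MZ_Sox2, 11.91, 12.04 and 11.54 in MZ, against 12.51, 12.36 and 12.33 in WT_Sox2 and 10.87, 10.81 and 11.42 in WT. WT_Sox2 lay above all other samples, and MZ_Sox2 overlapped with MZ. Between the arms the difference was -1.80 (SE 0.35, unadjusted p = 0.000221, adjusted p = 0.279). The gene nup37, for a protein of the nuclear pore, had 8.99, 11.21, 11.22 and 11.41 in MZ_Sox2, 11.82, 11.81 and 11.11 in MZ, against 12.44, 12.77 and 11.62 in WT_Sox2 and 8.61, 8.74 and 10.13 in WT. MZ_Sox2 replicate 1 read 8.99, near the WT samples, while the other MZ_Sox2 samples lay between 11.21 and 11.41. The difference of effects of nup37 was -4.36 (SE 0.92, unadjusted p = 0.000471, adjusted p = 0.333), a second probe gave -2.41, and the range over all alternatives was -5.54 to -3.38.

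The thymosin gene tmsb5, of a family that binds actin monomers, ranged over 12.27 to 13.04 in MZ_Sox2, 13.14 to 13.45 in MZ, 13.73 to 14.16 in WT_Sox2 and 12.82 to 13.03 in WT. MZ_Sox2 lay below MZ, and WT_Sox2 lay above all others, for a difference between the arms of -1.61 (SE 0.34, adjusted p = 0.316). The gene gatm, for the first enzyme of creatine synthesis, was the exception to the larger WT arm, with effects of -1.63 in MZ embryos and 0.85 in WT embryos and a difference of -2.48 (SE 0.56, adjusted p = 0.333). Its values ranged over 9.04 to 10.17 in MZ_Sox2, 10.49 to 11.36 in MZ, 10.46 to 10.96 in WT_Sox2 and 9.24 to 10.82 in WT. The gene fbxw8, for a substrate adaptor of a ubiquitin ligase, had 6.69 to 9.24 in MZ_Sox2, 8.90 to 9.27 in MZ, 9.27 to 9.63 in WT_Sox2 and 7.81 to 8.15 in WT, and a difference between the arms of -2.70 (SE 0.68, adjusted p = 0.347). Last, rilpl2, related to a lysosomal Rab effector, had 8.90 to 10.25 in MZ_Sox2, 9.78 to 10.69 in MZ, 9.56 to 10.82 in WT_Sox2 and 8.55 to 9.28 in WT. Its difference of effects was -2.32 (SE 0.57, adjusted p = 0.347), but its 2 dimmer probes gave 1.64 and 0.09, so the probes of rilpl2 disagree in sign.

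All 24 genes kept their sign and an unadjusted p under 0.05 in the 27 refits of the model, which include leaving out each sample in turn and slide as a block. The genes were picked by this contrast and the refits reuse most of the same samples, so this describes the choice and is no independent support. Among 13 of the 24 genes with further probes, 13 of 16 such probes had the same sign. These probes read the same RNA in the same samples, so their agreement is no independent support either. The share over all genes with several probes was not counted. Without WT replicate 3 and MZ replicate 3 together, a fit chosen after the data were seen, limma called 1974 of 21495 probes. These included 581 of 4949 bright genes (285 higher and 296 lower) and 21 of the 24 named genes. Each of the 2 single omissions gave 0 calls. WT replicate 3 and MZ replicate 3 had the lowest mean correlations with their own groups (0.799 and 0.855). Leaving both out thus narrows the spread within groups by construction. WT then held only replicates 1 and 2, which correlated at 0.996. The calls of this fit are therefore no support for the named genes.

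Among the SoxB1 genes, the family of Sox2 itself, 3 were bright. The gene sox1b, a neural SoxB1 factor, read 7.04, 8.02, 8.10 and 8.41 in MZ_Sox2, 3.40, 6.58 and 8.08 in MZ, against 7.99, 6.75 and 8.48 in WT_Sox2 and 9.90, 10.32 and 12.71 in WT. WT lay above all other samples, and the other 3 groups overlapped. MZ replicate 1 read under the dark control feature of its array, whose intensity was 132.7, so 2 of the 3 MZ samples measured it. MZ minus WT, the effects differed by 4.75 (SE 1.38, adjusted p = 0.396), and 3.69 with that sample set to its dark control feature, the lowest of a range that reached 5.86 over the alternatives. The other bright SoxB1 genes, sox19a and sox3, had differences of -1.95 (SE 1.32) and -2.18 (SE 1.49). Without MZ_Sox2 replicate 1, the lowest of its group for both, these were -0.85 and -0.75.

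Genes that the embryo switches on early mostly had a difference of effects below 0, with a large spread between samples. Of 32 bright early zygotic genes, 30 had a difference of effects below 0 (93.8%, against 51.9% of all bright genes), with a median of -1.15, but 2 of them (6.25%) had an unadjusted p under 0.05, against 5.84%. The median effect was -1.72 in MZ and -0.24 in WT. The median level of the list per sample was 8.53, 11.68, 10.55 and 11.02 in MZ_Sox2 and 12.79, 12.75 and 11.32 in MZ. In WT_Sox2 it was 9.76, 10.84 and 8.46, against 8.99, 8.90 and 12.50 in WT. MZ_Sox2 replicate 1 was lowest in its group, and WT replicate 3 stood far above the other WT samples. The median difference of effects was -2.00 without WT replicate 3, -2.01 without MZ replicate 3, -2.49 without both and -0.58 without MZ_Sox2 replicate 1, where 22 of 32 were below 0. The count of 2 lower genes moved with them, to 10 of 32 without WT replicate 3 (10% of all bright genes in that fit), 6 without MZ replicate 3 (10.6%), 16 without both (16.4%) and 1 without MZ_Sox2 replicate 1 (4.08%).

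The members with the largest statistics were znf703, a zinc finger transcriptional repressor, and cdx4, a caudal homeobox gene of the posterior body. For znf703 the log2 intensity was 6.91, 9.91, 8.73 and 8.23 in MZ_Sox2, 9.19, 9.33 and 8.82 in MZ, against 9, 9.33 and 8.64 in WT_Sox2 and 7.98, 7.71 and 8.07 in WT. MZ_Sox2 replicate 1 lay lowest of all samples, and WT_Sox2 lay above WT. In the fit the arms differed by -1.96 (SE 0.73, unadjusted p = 0.0191, adjusted p = 0.48). For cdx4 it was 7.59, 6.77, 10.49 and 8.78 in MZ_Sox2, 9.71, 9.77 and 11.09 in MZ, against 9.54, 10.51 and 7.09 in WT_Sox2 and 6.48, 6.56 and 9.82 in WT. WT replicate 3 and WT_Sox2 replicate 3 lay apart from their groups, so that WT_Sox2 and WT overlapped, and the difference of effects was -3.73 (SE 1.39, unadjusted p = 0.0198, adjusted p = 0.484). The Krüppel-like genes klf17 and klf2b had differences of -4.48 (SE 2.19) and -3.99 (SE 1.99), with SDs of 4.38 and 3.64 among the WT samples.

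Lists of patterning genes ran the same way. Of 13 neural and head ectoderm genes, 10 lay below 0 (median -1.2) and 3 (against 5.84% of all bright genes) had an unadjusted p under 0.05, namely znf703, otx2a at -3.60 (SE 1.60) and pou3f3a at -2.61 (SE 1.17). Homeobox factors otx2a and pou3f3a act in the anterior nervous system. Below 0 were also 9 of 11 dorsal organizer genes (median -1.17), 8 of 9 genes of the ventral and BMP pathway (median -1.08) and 11 of 14 of the mesendoderm and Nodal pathway (median -0.47). Of the 13 FGF and Wnt targets, 10 were below 0 (median -0.61), while il17rd, an inhibitor of FGF signalling, was above 0 at 1.11 (SE 0.44). Of all bright genes 51.9% were below 0. Few members of these 4 lists had a lower response at an unadjusted p under 0.05. They were 1 dorsal gene (9.09%), 1 ventral gene (11.1%), 0 mesendoderm genes and 0 FGF and Wnt genes, against 5.84% of all bright genes. Without MZ_Sox2 replicate 1 the medians were -0.31 for neural, -0.75 for dorsal, -0.58 for ventral, -0.26 for mesendoderm and -0.24 for FGF and Wnt genes, and 0 of 13 neural genes had a lower response at an unadjusted p under 0.05. Other omissions moved them the opposite way. Without WT replicate 3 the medians were -1.98 for neural, -1.97 for dorsal, -2.02 for ventral, -1.2 for mesendoderm and -1.04 for FGF and Wnt genes. Without MZ replicate 3 they were -1.96, -1.88, -1.84, -1.39 and -1.21 in the same order. The neural count over single omissions was 0 to 4, while 2.1% to 10.6% of all bright genes were lower at that p. These lists share members with each other and with the early zygotic list.

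Markers of cell layers were set beside these lists. Summed intensity of the 8 enveloping layer markers on the array was 1067 to 44260 in MZ_Sox2, 1890 to 17100 in MZ, 1287 to 2683 in WT_Sox2 and 1080 to 9517 in WT, and 4 of the 8 were not bright, with cyt1 and cldne lowest (mean log2 3.86 and 2.99). For the 5 yolk syncytial layer markers it was 3077 to 64500 in MZ_Sox2, 14680 to 46470 in MZ, 3115 to 15630 in WT_Sox2 and 2660 to 45880 in WT. In MZ_Sox2 replicate 2, which had the highest sum, apoeb and mxtx2 made up 39910 and 22650 of it. For the 6 markers of the deep cells of the blastoderm it was 42030 to 91270 in MZ_Sox2, 68940 to 95980 in MZ, 25000 to 56910 in WT_Sox2 and 33950 to 76110 in WT. In MZ_Sox2 replicate 1, pou5f3 and cdh1 made up 25750 and 15250 of the 42030. In WT_Sox2 replicate 3 they made up 15500 and 7635 of the 25000, so these sums largely repeat the probes of those genes. Their differences of effects were -0.18 for pou5f3 and 1.16 for cdh1. For sox3, sox19a, klf17 and foxd3 they were -2.18, -1.95, -4.48 and -5.30. Of the 6, foxd3 alone had an unadjusted p under 0.05 in limma (0.0358), and it was not bright (mean log2 6.56). The gene pou5f3 encodes the protein that MZ embryos lack, and cdh1 is also in the enveloping layer and epidermis list. Replicates within a group covered wide ranges for the enveloping layer and yolk syncytial layer markers, narrowest for the enveloping layer in WT_Sox2 (1287 to 2683). The part of these layers in the patterning lists was not tested.

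**Figure D3:**
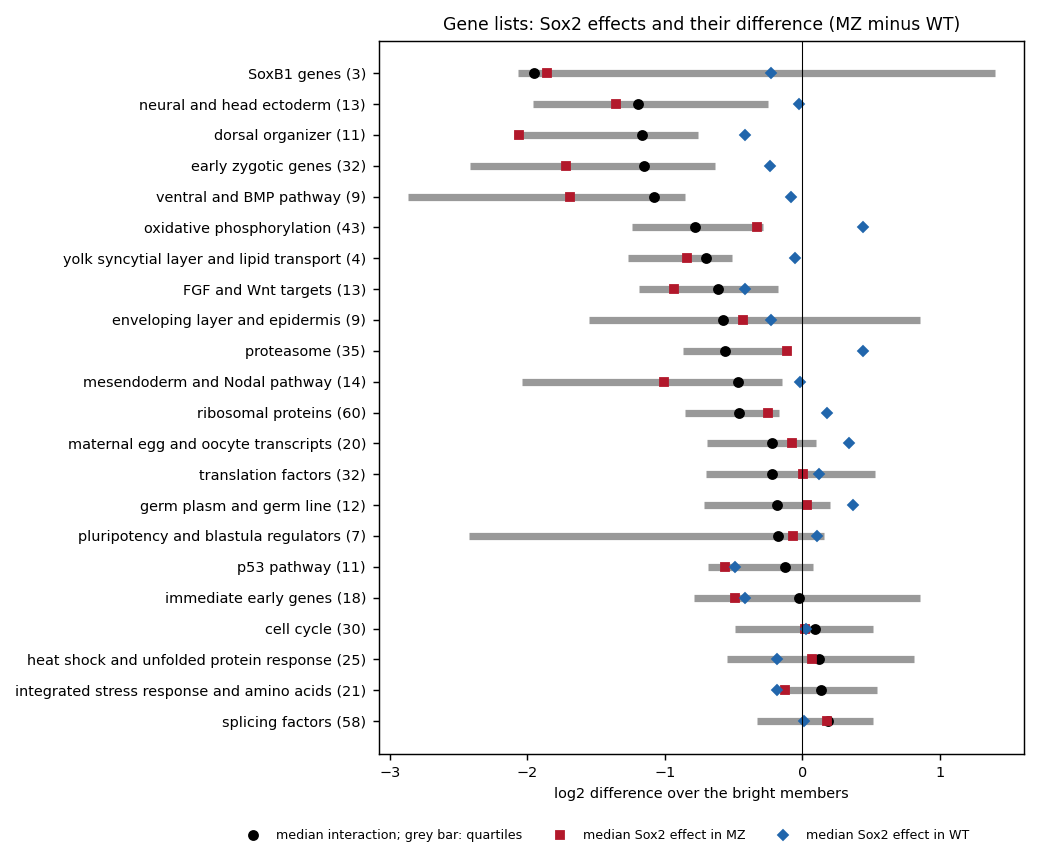
Median difference of effects (black points, with grey bars for the quartiles over genes), median Sox2 effect in MZ (red squares) and in WT (blue diamonds) for the bright members of each gene list, as log2 differences, with the number of bright members in brackets. Early developmental lists lie left of 0 with a negative MZ effect, oxidative phosphorylation, proteasome and ribosomal protein genes lie left of 0 with effects of opposite sign in MZ and WT, and splicing factors lie right of 0.

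Genes of oxidative phosphorylation, the mitochondrial complexes that make ATP, also lay mostly below 0, with less spread between samples. Of 43 bright members, 37 had a difference of effects below 0 (86%) and 12 (27.9%) had an unadjusted p under 0.05 with a lower response, against 5.84% of all bright genes, and 0 with a higher one. The median difference was -0.78, made up of -0.33 in MZ and 0.44 in WT. It stayed below 0 in all 28 alternatives, from -0.94 to -0.60, and without MZ_Sox2 replicate 1 it was -0.74. The count of 12 depended more on single samples. It was 7 without MZ_Sox2 replicate 1 (4.08% of all bright genes in that fit), 6 without MZ_Sox2 replicate 2 (5.42%), 3 without MZ replicate 2 (2.1%) and 2 without WT replicate 1 (3.39%). It was 8 without WT_Sox2 replicate 1 (4.04%) and 22 without WT replicate 3 (10%). With the deposited values unmapped 0 of 43 were under that p (1.21%). The adjusted p of its best member was 0.443. The median level of the list per sample was 11.96, 12.07, 12.45 and 12.59 in MZ_Sox2 and 12.62, 12.39 and 12.66 in MZ. In WT_Sox2 it was 12.73, 12.28 and 12.73, against 12.25, 12.21 and 12.59 in WT. The groups thus overlapped in both arms. Members of a list were read in the same samples, so counts of members, here and below, are not counts of independent observations.

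Complex I, which takes electrons from NADH, had 16 of 19 subunits below 0 (median -1.03). A lower response at an unadjusted p under 0.05 was found for 7 of the 19, against 5.84% of all bright genes. These were ndufa2, ndufa8, ndufb4, ndufb9, ndufs3, ndufs4 and ndufv2. For ndufs4 the log2 intensity was 10.80, 10.09, 11.49 and 11.75 in MZ_Sox2, 12, 11.51 and 11.40 in MZ, against 12.04, 11.90 and 11.68 in WT_Sox2 and 10.59, 10.75 and 11.35 in WT. WT_Sox2 lay above WT with no overlap and MZ_Sox2 overlapped with MZ, for a difference between the arms of -1.66 (SE 0.59, unadjusted p = 0.0154, adjusted p = 0.468). All 6 subunits of complex III and 6 of 7 of complex IV, cox7a2a among them, were below 0. In the ATP synthase 8 of 10 were below 0. Of these 10, 4 had a lower response at an unadjusted p under 0.05 (against 5.84% of all bright genes), namely atp5pb, atp5l, atp5f1c and atp5f1d. The largest statistic was that of atp5f1d, which read 13.21, 12.95, 13.34 and 13.69 in MZ_Sox2, 13.97, 14.28 and 13.72 in MZ, against 13.38, 13.37 and 13.81 in WT_Sox2 and 12.41, 11.99 and 13.40 in WT. MZ_Sox2 lay below MZ with no overlap, whereas WT replicate 3 lay within the WT_Sox2 range. The fitted difference of effects was -1.60 (SE 0.51, adjusted p = 0.443).

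The proteasome, which degrades tagged proteins, gave a like count. Of 35 bright subunit genes, 28 were below 0 (80%), against 51.9% of all bright genes, and 7 (20%) had an unadjusted p under 0.05 with a lower response, against 5.84%, and 0 with a higher one. The count was 2 without MZ replicate 2 (2.1% of all bright genes in that fit) or WT replicate 1 (3.39%). It was 4 without MZ_Sox2 replicate 1 (4.08%) and 0 with the deposited values unmapped (1.21%). The median was -0.56. The median effect was -0.11 in MZ and 0.44 in WT. In the 20S core, which holds the protease sites, 13 of 14 were below 0 (median -0.66), including psma1, psma4 and psmb2 with an unadjusted p under 0.05. In the 19S cap, which takes in tagged proteins, 14 of 19 were (median -0.21), including psmd4a, psmd6, psmd13 and psmd14. For psma1 the log2 intensity was 11.01, 11.60, 11.51 and 12.22 in MZ_Sox2, 12.13, 12.47 and 12.14 in MZ, against 11.77, 11.82 and 12.33 in WT_Sox2 and 10.72, 10.71 and 11.51 in WT. WT_Sox2 lay above WT with no overlap, and the difference of effects was -1.74 (SE 0.53, unadjusted p = 0.00642, adjusted p = 0.414). The list's median over the alternatives was -0.64 to -0.25. Per sample, the list's median level was 12.37 to 12.75 in MZ_Sox2 and 12.62 to 12.78 in MZ. It was 12.40 to 12.80 in WT_Sox2 and 11.96 to 12.22 in WT.

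Of 60 bright ribosomal protein genes, 49 were below 0 (81.7%), with a median of -0.46, and 8 (13.3%) had an unadjusted p under 0.05 with a lower response, against 5.84% of all bright genes. This count was 1 of 60 without MZ_Sox2 replicate 1 (4.08% of all bright genes), where the median was -0.27. It was also 1 without MZ replicate 2 (2.1% of all bright genes in that fit) or WT replicate 1 (3.39%), and 4 without MZ_Sox2 replicate 3 (5.03%). It was 5 without WT_Sox2 replicate 1 (4.04%), 12 without WT replicate 3 (10%) and 0 with the deposited values unmapped (1.21%). The range of the median over the alternatives was -0.89 to -0.27. Per sample, the list's median level was 13.37 to 14.46 in MZ_Sox2 and 13.88 to 14.23 in MZ. It was 13.20 to 13.72 in WT_Sox2 and 13.07 to 13.84 in WT, so the groups overlapped in both arms. The large subunit had 31 of 38 below 0 and the small subunit 18 of 22. For rpl19, of the large subunit, MZ_Sox2 replicate 1 read 13.88 and the other MZ_Sox2 samples 14.86 to 14.99, and the difference of effects was -1.04 (SE 0.38, adjusted p = 0.477). For rps6, of the small subunit, it was -1.49 (SE 0.54, adjusted p = 0.473).

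Translation factors did not share 1 direction. Of 32 bright members, 18 were below 0 and 14 above. At an unadjusted p under 0.05, 3 were lower (9.38%, against 5.84% of all bright genes) and 2 higher (6.25%, against 5.8%). The genes eif3ea and eif3f, for subunits of the factor that brings the small ribosomal subunit to mRNA, had differences of -2.29 (SE 0.84) and -1.89 (SE 0.71). A second, dimmer eif3ea probe gave -0.005 (limma unadjusted p = 0.986). The gene eif5b, for the GTPase that joins the subunits, had one of 1.67 (SE 0.52, adjusted p = 0.432). It read 15.73, 14.27, 14.44 and 14.44 in MZ_Sox2, 14.96, 15.66 and 14.47 in MZ, against 13.57, 13.01 and 13.93 in WT_Sox2 and 15.12, 15.19 and 15.37 in WT. WT_Sox2 lay below all other samples, and MZ_Sox2 replicate 1 lay above its group.

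Splicing factor genes lay slightly above 0. Of 58 bright members, 36 were above 0 and 22 below, with a median of 0.19, and 4 (6.9%) had an unadjusted p under 0.05 with a higher response, against 5.8% of all bright genes. That count was 1 without MZ replicate 2 (3.03% of all bright genes in that fit) or WT replicate 1 (4.04%). It was 2 without MZ_Sox2 replicate 3 (5.01%) or WT_Sox2 replicate 1 (4.02%) and 8 without MZ replicate 3 (9.98%). In the SR proteins, which bind exonic enhancers, 12 of 17 were above 0 (median 0.45), and srsf3a, srsf7a and srsf9 had an unadjusted p under 0.05. The difference was 1.57 (SE 0.54) for srsf7a, but its further probes gave -0.75, 0.48 and -0.45, with a median over probes of 0.02. For srsf9 the difference was 1.18 (SE 0.45). The gene u2af1, for the factor that reads the end of the intron, had the opposite sign at -1.11 (SE 0.41). The median of the list stayed above 0 in all 28 alternatives, from 0.03 to 0.43.

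Of the integrated stress response and amino acid genes, 12 of 21 bright members were above 0. In each direction 2 genes (9.52%) had an unadjusted p under 0.05, against 5.8% higher and 5.84% lower of all bright genes. The gene atf4a (probe A_15_P110418) encodes the transcription factor of that stress response. Its samples read 12.55, 13.61, 13.42 and 13.86 in MZ_Sox2, 12.61, 13.29 and 13.85 in MZ, against 11.63, 11.29 and 12.32 in WT_Sox2 and 14.71, 14.98 and 15.56 in WT. WT lay above and WT_Sox2 below all samples of both MZ groups, which overlapped. As a difference of effects this gave 3.36 (SE 0.83, unadjusted p = 0.00153, adjusted p = 0.347), made up of 0.02 in MZ embryos and -3.34 in WT embryos, and it was 2.62 to 3.73 over the alternatives. The aminoacyl-tRNA synthetase genes nars1 and mars1 had opposite signs, at -1.43 (SE 0.61) and 0.89 (SE 0.38).

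Cell cycle genes were divided, with 16 of 30 above 0. The gene ccne1, for cyclin E, which starts DNA replication, read 12.88, 14.06, 14.07 and 13.76 in MZ_Sox2, 11.89, 13.70 and 13.63 in MZ, against 11.63, 12 and 12.95 in WT_Sox2 and 13.63, 13.49 and 14.33 in WT. WT_Sox2 lay below WT with no overlap, and the difference of effects was 2.14 (SE 0.69, adjusted p = 0.449). Its kinase partner gene cdk2 had -0.74 (SE 0.33), the opposite sign. Of 18 immediate early genes, 9 were above 0, led by zfp36l1a, whose protein marks AU-rich mRNAs for decay. It had a difference between the arms of 1.42 (SE 0.51, adjusted p = 0.471), and its pairwise differences did not overlap. In the heat shock and unfolded protein list 14 of 25 were above 0, led by hsp70l at 1.54 (SE 0.67).

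Maternal egg and oocyte transcripts had 12 of 20 below 0, with a median of -0.22. The 2 members with a lower response at an unadjusted p under 0.05 (10%, against 5.84% of all bright genes) were zp3 and the further egg coat gene zp2.3. The latter had -1.79 (SE 0.58, adjusted p = 0.449). The median of this list was 0.20 without MZ replicate 3. Of 12 germ plasm and germ line genes, 7 were below 0 (median -0.18, and 0.11 without MZ replicate 3). The gene tdrd7a, for a Tudor protein of germ granules, had -1.15 (SE 0.66), and its median over probes had the opposite sign (0.06).

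In 4 further lists no bright member had an unadjusted p under 0.05. That held with all samples. Without WT replicate 3 the enveloping layer list had 3 such members, the pluripotency list 3 and the p53 list 1, and without MZ replicate 3 the yolk syncytial list had 1. Of all bright genes, 9.27% were higher and 10% lower at that p without WT replicate 3, and 9.98% and 10.6% without MZ replicate 3. The enveloping layer and epidermis list had 9 bright members and a median of -0.58, which changed sign in 7 of 28 alternatives. It was 0.83 without MZ_Sox2 replicate 1 and -1.74 without MZ replicate 3. Its largest statistic was that of cdh1, for the adhesion protein E-cadherin, at 1.16 (SE 0.55, adjusted p = 0.553), followed by spint1a, for a protease inhibitor of epithelia, at 1.11 (SE 0.55). The transcription factor gene tfap2a of the same list, which acts in epidermis and neural crest, had -3.69 (SE 1.83). The medians were -0.70 over 4 yolk syncytial layer and lipid transport genes, -0.18 over 7 pluripotency and blastula regulators and -0.13 over 11 genes of the p53 pathway. Without MZ replicate 3 they were -1.57 for the yolk syncytial and -0.79 for the p53 list. Of the hox and caudal genes, cdx4 was the only 1 of 10 on the array that was bright.

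**Figure D4:**
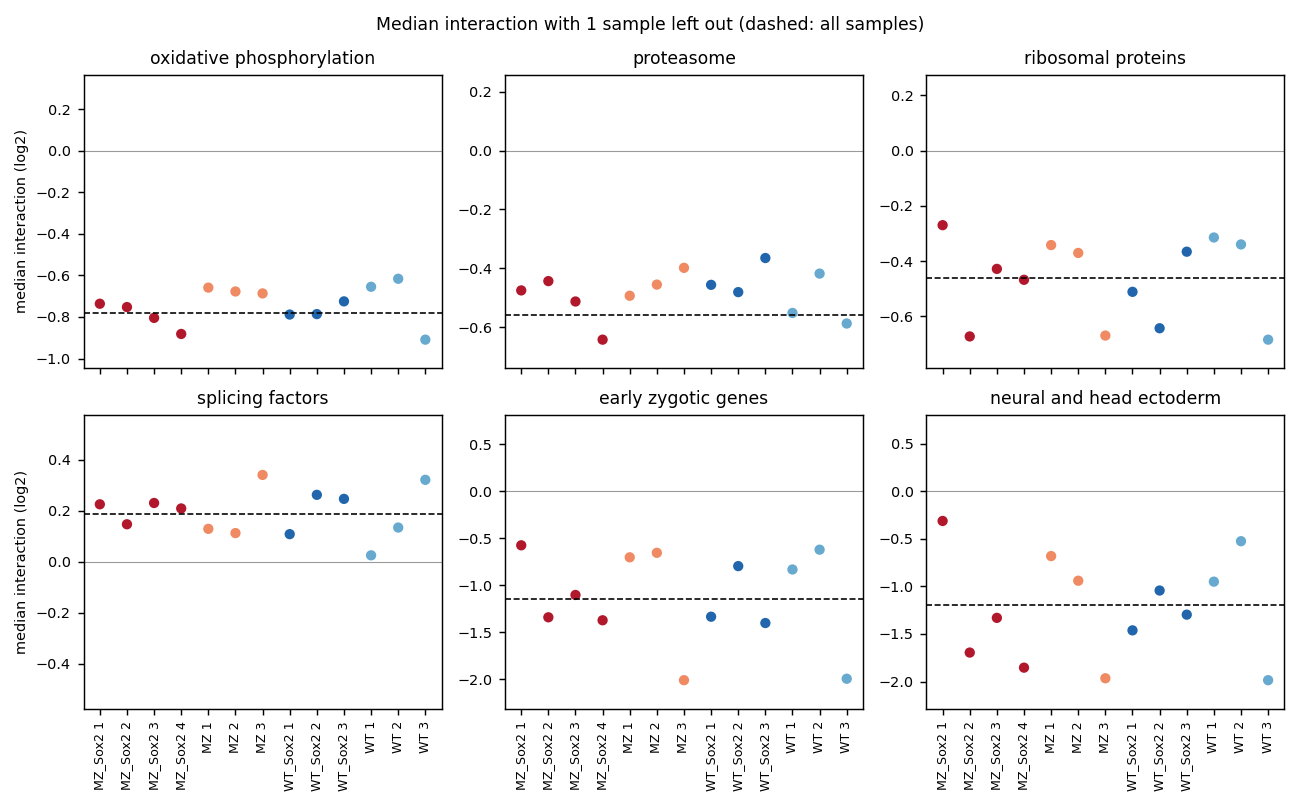
Median difference of effects over the bright members of 6 gene lists when each of the 13 samples was left out (x axis, sample left out, coloured by group), with a dashed line for all samples and a grey line at 0. The early zygotic median moves between -2.01 and -0.58 and the neural median between -1.98 and -0.31 with the sample left out, whereas oxidative phosphorylation stays between -0.91 and -0.62 and splicing factors stay above 0.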

How the data were processed

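RNA of pooled whole embryos was read on Agilent arrays. The authors deposited 1 linear intensity per probe and sample. The submitters' processing notes name Agilent Feature Extraction, with its version and background correction not given in the sources used here. Both dye channels were separated, brought to common quantiles and treated as independent samples by the authors, per the labels of the series. In 14 of 16 columns the sorted values were identical (tolerance 1e-06), with a median intensity of 55.07. The other 2 columns, MZ_Sox2 replicate 4 and a sample of MZ embryos injected with Pou5f1 mRNA, were mapped onto that distribution by rank, and log2 was taken. Of 21555 features, 60 controls were left out. In the annotation 12887 of the 21495 probes had 1 gene symbol, 8608 had none and 0 had several. RefSeq GRCz12tu, used for names only, held the gene identifiers of 12807 probes and changed 0 symbols. A gene was its probe with the highest mean. Levels of different probes were not set against each other.

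All 16 samples entered 1 limma fit (lmFit and eBayes, two-sided) that estimated group means, adjusted for dye and treated the array as a random block, since 3 arrays held 2 of the samples (consensus correlation 0.04286, 10 residual and 2.309 prior degrees of freedom). Benjamini-Hochberg adjustment ran over 21495 probes with a threshold of 0.05. The number of arrays limits the precision. The p-values set each difference against the spread between samples within groups, pooled over all groups of the fit and moderated across probes. That spread includes differences between slides within a group. The fit was tested on simulated data over 21495 probes for the difference of effects. Of the probes given a log2 difference of 1 it called 0%, of those given 2, 4 and 6 it called 18%, 80% and 84%, and 1 unchanged probe was called. Simulated noise was independent between probes and between samples, without differences between arrays or slides and without outlying samples. The added difference was the same in all MZ_Sox2 samples. The arrays used here are unlike this, which limits what these shares say.

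The members, the gene lists and the tests were chosen with earlier results of these data known. Named genes were the 12 bright genes with the highest and the 12 with the lowest moderated statistic, sox2 and pou5f3, and up to 3 bright members of each list with the largest statistic. Symbols holding a colon or starting with cb or LOC were passed over (199 bright genes). Members of the complexes beyond this rule were named after their values were seen, by their unadjusted p. Alternatives changed the normalization, a floor of 32, the dye term, the block, the slide, which samples and probes were fitted, the empirical Bayes options, sample weights, the probe of a gene and each sample left out in turn. Promoter motifs were not described, since promoter sequences were not used here. The fits ran in R 4.3.3 (limma 3.58.1, and the package data.table at version 1.17.8). Plots were drawn by matplotlib 3.10.9 under Python 3.11.15.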

Additional observations from a re-analysis of the deposited data

Results flagged for a closer look

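In 6 of the 83 named genes 1 sample stood apart from its group by Dixon's criterion, which chance alone meets in about 1 in 20 groups, and in all 6 it was MZ_Sox2 replicate 1. That sample read higher than its group in ylpm1, at a log2 intensity of 12.65 against 11.85 to 11.98 in the other MZ_Sox2 samples, and in eif5b, at 15.73 against 14.27 to 14.44. It read lower in nup37, at 8.99 against 11.21 to 11.41, and in sox19a, at 9.04 against 12 to 12.55. It was also lower in tbxta, the mesodermal T-box gene, at 7.60 against 9.98 to 10.46, and in rpl19, at 13.88 against 14.86 to 14.99. Groups of 3 samples were not examined in this way. It is the only MZ_Sox2 sample on slide A and the only one labelled with Cy5, so sample, slide and dye cannot be told apart for it.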

How the results depend on the processing

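The counts depended on the processing. The 24 named genes, picked by this contrast, kept their sign in all alternatives, except rilpl2, whose median over probes was 0.0936. The fit with all samples called 0 probes for the difference of effects, 0 for Sox2 in MZ and 21 for Sox2 in WT. For the difference of effects the count was 1 with a floor of 32, 65 with slide as a fixed block, where the injected arm rests on MZ_Sox2 replicate 1, 2 with only the 13 samples in the fit (lman2lb among them, adjusted p = 0.0343) and 4660 with sample weights, whose estimation stopped before it converged. Sample weights also gave 2 calls for Sox2 in MZ, 5511 for Sox2 in WT, and 1018 higher and 1123 lower bright genes at an unadjusted p under 0.05, against 287 and 289. For Sox2 in WT the count was 0 with the deposited values unmapped, 35 with cyclic loess, 7 with a floor of 32, 0 with slide as a random block, 65 with only the 13 samples and 11 with only bright probes. For Sox2 in MZ it was 1 with trend and robust options. Unmapped values gave 60 bright genes with a lower response and moved the median difference of effects of bright genes to 0.14, against -0.04.

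Leaving out 1 sample gave 0 to 22 calls for the difference of effects (22 without WT_Sox2 replicate 3, 11 without WT_Sox2 replicate 2, 10 without MZ replicate 1), 0 to 8 for Sox2 in MZ and 0 to 121 for Sox2 in WT. Bright genes at an unadjusted p under 0.05 numbered 150 to 494 higher and 104 to 525 lower, with the fewest without MZ replicate 2 and the most without MZ replicate 3. Genes whose pairwise differences did not overlap numbered 208 to 661 (661 without WT replicate 3), against 191 with all samples, and fewer pairs make this count larger by construction. The difference of effects of pou5f3 was -0.33 to 0.0765 and that of mxtx2, a yolk syncytial layer gene, -1.84 to 0.11. The list medians kept their sign in all 28 alternatives for 13 of 23 lists, while those of the enveloping layer and immediate early lists kept it in 21 and that of the cell cycle list in 22. Without the dye covariate the difference of effects of pou5f3 was 0.0648, and for tdrd7a the median over probes gave 0.0626.

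With the replicate number as a block (replicate block) the counts were 0 for the difference of effects and 0 for Sox2 in WT. The numbers did not pair the samples: of 18 same-numbered pairs across groups 5 had deviations correlated above 0.1, over a range of -0.669 to 0.512. After the data were seen 3 alternatives were added, 1 of them for sox1b alone. With WT replicates 1 and 2 averaged there were 4 calls for Sox2 in WT. Without WT replicate 3 and MZ replicate 3 there were 1974 calls for the difference of effects, 1534 for Sox2 in MZ, and 827 higher and 813 lower bright genes at an unadjusted p under 0.05. These samples were the least like their own groups, so this omission narrows the spread within groups by construction. The cause of these changes was not tested.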
